A study of Homo sapiens with 36 samples.

Results

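The variable segments of the T cell receptor genes were followed in 7 human T cell lines with and without knockdown of GATA3. The segments were taken as every gene whose symbol begins with TRAV, TRBV, TRGV or TRDV, which gave 140 of the 60628 gene identifiers counted: 69 of the beta chain, 54 of the alpha chain, 14 of the gamma chain and 3 of the delta chain. Levels were no part of that rule, though it was set with earlier results of these data known. Polyadenylated RNA was sequenced in 36 libraries, 18 from cells in which a hairpin RNA targeted GATA3 and 18 from cells with a scrambled hairpin, whose genotype the labels give as WT. The lines labelled as cutaneous T lymphocytes were H9 (3 knockdown and 2 control libraries), MyLa, labelled Myla CD4+ (3 and 3), and Mac1 (2 and 2). The lines labelled Acute Lymphoblastic Leukemia were MOLT4 (2 and 2), THP6 (2 and 3), SUP-T1 (3 and 3) and CCRF-CEM (3 and 3). Whether replicates came from separate cultures is not stated in the labels, so a p-value here weighs the scatter of these libraries only, and that scatter may be technical. All are established cell lines grown in culture.

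A developing T cell builds each receptor chain by joining 1 variable segment to a joining segment, with a diversity segment between them in the beta and delta chains. The joined unit is transcribed from the promoter of the variable segment and spliced to a constant gene, TRAC for alpha, TRBC1 or TRBC2 for beta, and TRGC1 or TRGC2 for gamma. The cells of a clonal line descend from 1 cell and so carry its joins, and GATA3 is a zinc finger transcription factor needed for T cell development.

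Each line with a beta chain was led by 1 beta segment, and all lines but CCRF-CEM and THP6 had one of their own. To show what was read out, the last 60 coding bases of the leading segments are printed here from the GENCODE 29 transcripts, 5′ to 3′, with GRCh38 coordinates. The capitals mark the codon of the conserved cysteine that opens the third complementarity-determining region, the loop that the join completes. Each of these segments has 2 annotated exons, and the printed bases are the coding 3′ end of the segment, where joining takes place. Between 9 and 15 coding bases follow the cysteine codon in these 12 segments.
TRBV13 (H9, chr7:142536233-142536292, plus strand): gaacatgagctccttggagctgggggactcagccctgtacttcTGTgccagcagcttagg
TRBV6-5 (MyLa, chr7:142451389-142451448, plus strand): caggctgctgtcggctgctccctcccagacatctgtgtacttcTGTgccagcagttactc
TRBV9 (SUP-T1, chr7:142392353-142392412, plus strand): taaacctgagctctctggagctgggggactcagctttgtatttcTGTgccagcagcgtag
TRBV3-1 (CCRF-CEM and THP6, chr7:142308989-142309048, plus strand): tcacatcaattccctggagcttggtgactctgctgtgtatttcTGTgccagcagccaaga
TRBV20-1 (MOLT4, chr7:142627340-142627399, plus strand): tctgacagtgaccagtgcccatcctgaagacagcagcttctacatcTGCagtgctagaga
TRBV20OR9-2 (orphon copy of TRBV20-1, chr9:33618447-33618506, plus strand): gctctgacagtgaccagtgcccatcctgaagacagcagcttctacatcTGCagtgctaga
TRAV20 (H9, chr14:22041094-22041153, plus strand): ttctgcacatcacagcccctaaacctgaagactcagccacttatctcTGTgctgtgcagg
TRAV8-6 (H9, chr14:21979061-21979120, plus strand): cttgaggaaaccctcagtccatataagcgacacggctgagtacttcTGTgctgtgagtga
TRAV4 (MyLa, chr14:21736923-21736982, plus strand): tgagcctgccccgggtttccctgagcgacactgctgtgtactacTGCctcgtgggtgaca
TRAV1-1 (SUP-T1, chr14:21622508-21622567, plus strand): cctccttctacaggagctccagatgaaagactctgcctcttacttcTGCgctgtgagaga
TRGV5 (H9, chr7:38349355-38349414, minus strand): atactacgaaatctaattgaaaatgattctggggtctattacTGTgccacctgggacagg
TRGV3 (MyLa, SUP-T1, CCRF-CEM and THP6, chr7:38358512-38358571, minus strand): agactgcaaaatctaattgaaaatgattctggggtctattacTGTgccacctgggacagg

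Some of these sequences are hard to tell apart in short reads. TRGV3 and TRGV5 were identical at 519 of 537 aligned transcript bases (96.6%). TRBV20-1, on chromosome 7, and its orphon TRBV20OR9-2, a non-functional copy on chromosome 9, were identical at 396 of 411 bases (96.4%). TRBV6-5 had 94.3% identity to TRBV6-6, which had at most 1 count in any library. Counts of TRGV3 against TRGV5, and of TRBV20OR9-2, are therefore uncertain in how reads were divided. TRBV13, TRBV9 and TRBV3-1 had no closer member than 78.3%, 77.0% and 72.9% identity. Annotated exons of the 140 segments overlapped no exon of another gene, but 6 gamma segments lie within the interval of the antisense gene TRG-AS1 on the other strand, TRGV3, TRGV4 and TRGV5 among them. Whether counting used strand is not stated in any source at hand, so sense and antisense reads cannot be told apart there.

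Library totals ran from 18.6 M to 50.6 M counts. Levels are CPM, that is counts scaled to library size, and levels of different segments were compared as CPM per kilobase of annotated exon. GATA3 itself fell in the knockdown libraries of 6 lines, with log2 fold changes from -1.45 in MOLT4 to -0.72 in MyLa. In SUP-T1 it went against the labels, with 77.2 to 86.6 CPM in the libraries labelled knockdown and 23.6 to 24.3 CPM in those labelled control. SUP-T1 libraries are therefore called by their labels, and no direction there can be assigned to loss of GATA3. Replicates of a group were unequally close: 3 of 30 pairs differed far more than the rest. Differences are given as mean squares per gene, in units of the variance of pure counting. The THP6 knockdown libraries differed by 154 times that variance. CCRF-CEM control replicate 2 differed by 85.8 and 103 times from the other control libraries, against at most 34.0 times in the other 27 pairs. Of 13 markers of T cells, 9 in MyLa, 11 in THP6 and 12 in each of the other lines but Mac1 averaged at least 1 CPM in the knockdown libraries. In Mac1 only 6 did, and CD3D, CD3E, CD3G, LCK and TRBC1 had no count in any of its knockdown or control libraries. Control libraries had the same numbers of T cell markers, except 11 in CCRF-CEM and 10 in MOLT4. Of 7 B cell markers, 3 averaged at least 1 CPM in knockdown libraries of each of H9, MyLa and Mac1. In THP6 4 did, in CCRF-CEM and MOLT4 2 each, and in SUP-T1 1. Of 7 myeloid markers 3 did in MyLa and in Mac1, 2 in CCRF-CEM, 1 in THP6 and 0 elsewhere.

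Most segments were silent in these lines. Of the 140, 54 had no count in any of the 36 libraries and 86 had at least 1 count. A mean of 1 CPM or more in any group of libraries was reached by 19 segments, 16 of them in 1 line. TRBV3-1 and TRBV7-2 reached it in 2 lines each and TRGV3 in 5 lines. The 33 segments annotated as pseudogenes included 22 with no count, and so did 6 of the 8 orphons. The delta chain was all but absent: its 3 segments had at most 1 count in a library, and its constant gene TRDC had 0 counts in all 36, where 0 allows up to 3 counts, by counting error alone. All 84 joining and diversity segments in the table were at 0 in every library, so the joins themselves were not measured.

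**Figure D1:**
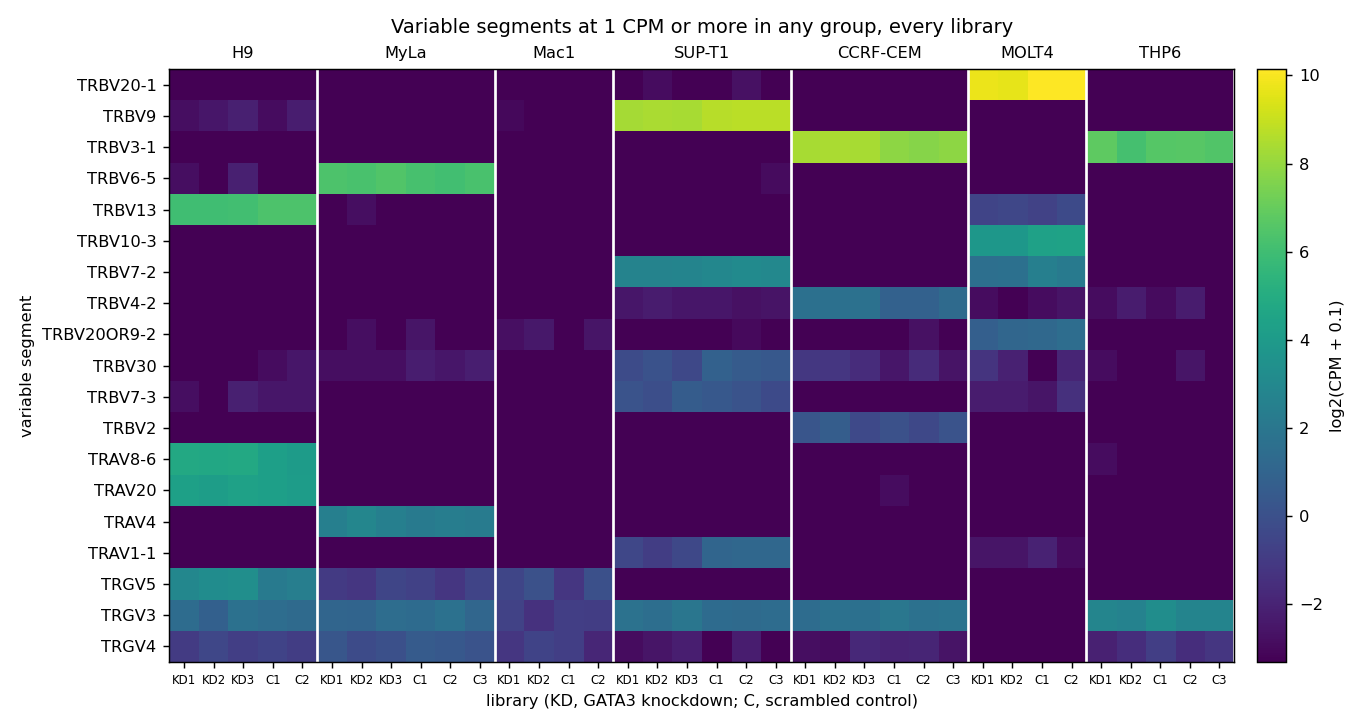
Level of the 19 segments that averaged at least 1 CPM in any group, as log2(CPM + 0.1), in each of the 36 libraries (KD, knockdown; C, scrambled control; numbers are replicates). One bright beta row stands in each line except Mac1, and CCRF-CEM and THP6 share the row of TRBV3-1.

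The leading beta segment was TRBV13 in H9, TRBV6-5 in MyLa, TRBV20-1 in MOLT4 and TRBV9 in SUP-T1, while TRBV3-1 led in both CCRF-CEM and THP6. The same segment led in every knockdown and every control library of its line. Averaged over both arms, the leaders ordered as TRBV20-1 in MOLT4 (2369 CPM per kilobase), TRBV9 in SUP-T1 (976), TRBV3-1 in CCRF-CEM (713) and TRBV3-1 in THP6 (239). TRBV13 in H9 (199.6 CPM per kilobase) and TRBV6-5 in MyLa (191) came last. Those last 2 did not keep their order in both arms: the means were 176 CPM per kilobase for TRBV13 and 205 for TRBV6-5 in knockdown libraries, against 223 and 178 in control libraries. The leader stood 49.8 times above the runner-up TRBV10-3 per kilobase in MOLT4 and 53.9 times above TRBV7-2 in SUP-T1. It stood 129 times above TRBV4-2 in CCRF-CEM, and the gap was wider in H9, MyLa and THP6.

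Beta and alpha leaders also stayed in the lines that they led. TRBV3-1 had 0 counts in all 25 libraries of the 5 lines it did not lead, and TRAV4 had 0 in all 30 libraries outside MyLa. Outside its own line TRBV20-1 reached 2 counts, TRBV6-5 and TRBV9 reached 3 counts each, and TRAV20 reached 1. TRBV13 was the exception among beta leaders, with 15 to 22 counts in each MOLT4 library, or 0.540 to 0.728 CPM. Apart from TRBV3-1, which CCRF-CEM and THP6 share, no library held another line's leading beta segment at 1 CPM. Mixing between CCRF-CEM and THP6 cannot be read from a beta leader that both have.

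The share that the leading beta segment took of its chain, in counts per kilobase, was nearly the same in both arms. TRBV13 took 99.2% ± 0.49 of the beta segment counts per kilobase in H9 knockdown libraries (SD, n = 3), against 99.1% ± 0.062 in control libraries (n = 2). In MOLT4 the share of TRBV20-1 was 97.4% ± 0.14 in knockdown libraries, against 97.2% ± 0.034 in control libraries (SD, n = 2 each). The other beta leaders averaged between 97.5% and 99.9% in both arms. Two-sided exact permutation tests of the 6 beta shares gave p from 0.3 to 0.8. The smallest p these designs allow is 0.1 with 3 libraries against 3, 0.2 with 3 against 2 and 0.333 with 2 against 2, so none could pass 0.05.

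The difference in level of the leading beta segment between the arms passed edgeR's test in 3 lines. Each segment was tested by edgeR's quasi-likelihood test with Benjamini-Hochberg adjustment over the 21138 genes tested, and a segment was called at an adjusted p under 0.05. Of the 140 segments 30 were tested in every line, and the 110 left out by the filter on low counts had at most 15 counts in a library. A segment passed that filter by its level anywhere in the series, so most of the 30 were at or near 0 in a given line. Between 0 of them (Mac1) and 6 (SUP-T1) averaged at least 1 CPM in an arm of a line. Shares of all genes printed beside the calls are therefore for scale only. Over all lines 5 calls were made: MOLT4 and SUP-T1 had 2 each and CCRF-CEM had 1. In bulk RNA, fewer cells with a transcript and less transcript per cell cannot be told apart.

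**Figure D2:**
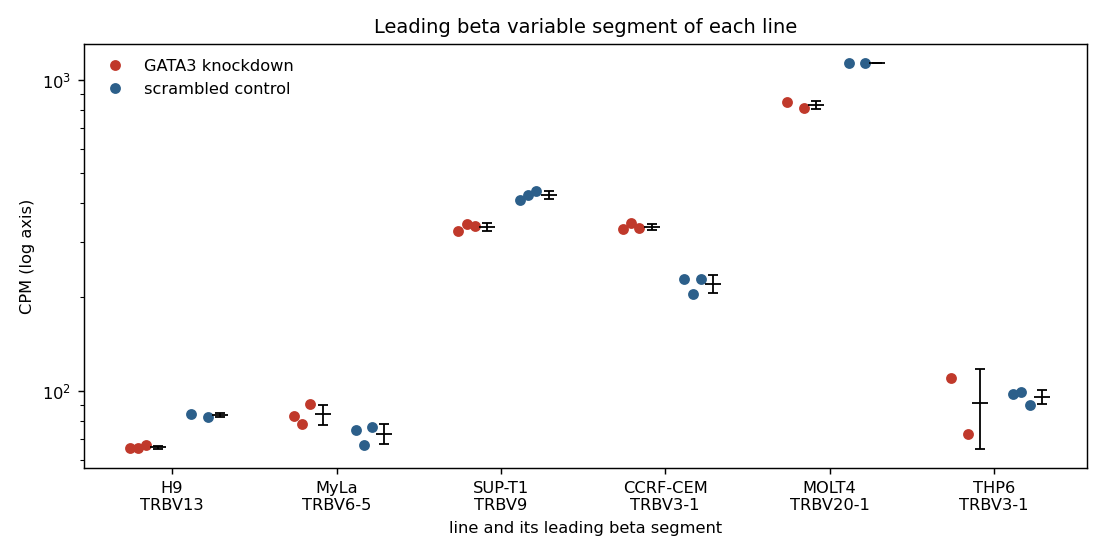
CPM of the leading beta segment on a log axis, 1 point per library, knockdown left of control within each line, with the mean and SD beside the points. In SUP-T1, CCRF-CEM and MOLT4 the arms stand clear of each other and the difference passed edgeR's test. In H9 and MyLa the arms do not overlap either, but the difference did not pass. In THP6 the control points lie between the 2 knockdown points.

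In CCRF-CEM TRBV3-1, which encodes most of the variable domain of its beta chain, was higher after knockdown. TRBV3-1 (ENSG00000237702) had 331, 346 and 334 CPM in knockdown libraries, against 229, 204 and 229 CPM in control libraries. All knockdown libraries stood above all control libraries. The log2 fold change was 0.61 (SE 0.117), with an adjusted p of 0.00438 by edgeR's quasi-likelihood test. Without control replicate 2 it was 0.59, with an adjusted p of 0.0205. TRBV3-1 was the 1 segment called higher in CCRF-CEM and none was called lower, where 3% of all genes were called higher and 8.44% in either direction.

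Smaller beta segments of CCRF-CEM pointed the same way without passing the test. TRBV4-2, which lies downstream of TRBV3-1 on chromosome 7, had 3.01, 3.03 and 3.20 CPM in knockdown libraries, against 1.74, 1.72 and 2.37 CPM in control libraries. The arms did not overlap, but the adjusted p by edgeR was 0.152 (log2 fold change 0.65, SE 0.262), while limma-voom and a fit of CCRF-CEM alone called it. TRBV2 averaged 1.07 ± 0.38 CPM in knockdown libraries and 0.856 ± 0.18 CPM in control libraries (SD, n = 3 each), and its arms overlapped.

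In MOLT4 2 beta segments were lower after knockdown. TRBV20-1 (ENSG00000211747), the most abundant segment of the series, had 845 and 811 CPM in knockdown libraries, against 1129 and 1129 CPM in control libraries. The arms stood apart with a log2 fold change of -0.45 (SE 0.116) and an adjusted p of 0.0163 by edgeR. TRBV7-2 (ENSG00000282939), a less abundant beta segment, had 2.94 and 2.99 CPM in knockdown libraries, against 5.44 and 4.53 CPM in control libraries. Its log2 fold change was -0.75 (SE 0.211), with an adjusted p of 0.0255 by edgeR. The 2 called lower and none called higher stand beside 10.3% of all genes called lower in MOLT4 and 19.2% called in either direction.

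The MOLT4 calls rest on few libraries. With any 1 of the 4 libraries left out, TRBV20-1 kept its direction and no longer passed, with log2 fold changes from -0.48 to -0.42 and adjusted p from 0.0761 to 0.109 by edgeR. Of the fits with 1 library left out, TRBV7-2 passed only without control replicate 2 (adjusted p 0.0495). With replicate number as a block its adjusted p was 0.0569, and without the filter on low counts 0.0891. The runner-up TRBV10-3 had 13.8 and 14 CPM in knockdown libraries, against 20.8 and 21.4 CPM in control libraries, without overlap. Its adjusted p was 0.0951 by edgeR (log2 fold change -0.60, SE 0.215), while limma-voom (adjusted p 4.31e-07) and a fit of MOLT4 alone (0.000344) called it.

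The orphon TRBV20OR9-2 was at 1 CPM in MOLT4, the line that uses its near-identical partner, and in no other line. It had 1.61 and 2.09 CPM in MOLT4 knockdown libraries, against 2.27 and 2.74 CPM in control libraries. That is 47 to 83 counts a library, against 23328 to 34125 counts of TRBV20-1, so the orphon's values cannot be told apart from a small misplaced share of TRBV20-1 reads. Its adjusted p was 0.569 by edgeR.

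In SUP-T1 both called segments were lower in the libraries labelled knockdown, where GATA3 was higher. TRBV9 (ENSG00000211716), the leading beta segment, had 325, 345 and 339 CPM in the libraries labelled knockdown, against 412, 426 and 437 CPM in those labelled control. The arms did not overlap, and the log2 fold change was -0.34 (SE 0.0776) with an adjusted p of 0.00674 by edgeR. The 2 called lower and none called higher compare with 8.57% of all genes called lower and 16.7% called in either direction in SUP-T1.

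The larger change in SUP-T1 was in the alpha chain. TRAV1-1 (ENSG00000255569), its 1 alpha segment with counts, had 0.631, 0.450 and 0.654 CPM in the libraries labelled knockdown, against 1.97, 2.15 and 2.20 CPM in those labelled control. Every library labelled knockdown was below every library labelled control. The log2 fold change was -1.86 (SE 0.318), with an adjusted p of 0.00119 by edgeR. These levels stand on 13 to 17 counts a library labelled knockdown and 52 to 79 counts a library labelled control.

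Minor beta segments of SUP-T1 did not pass edgeR's test. TRBV7-2 averaged 6.46 ± 0.081 CPM in the libraries labelled knockdown and 7.81 ± 0.61 CPM in those labelled control (SD, n = 3 each), without overlap and with an adjusted p of 0.326 by edgeR and 0.0209 by limma-voom. TRBV30, which lies in the opposite orientation to the other beta segments named here, had 0.743, 0.934 and 0.654 CPM in the libraries labelled knockdown, against 1.70, 1.36 and 1.19 CPM in those labelled control. Its arms did not overlap either, and the adjusted p was 0.12 by edgeR. TRBV7-3 averaged 1.09 ± 0.31 CPM in the libraries labelled knockdown and 0.980 ± 0.25 CPM in those labelled control (SD, n = 3 each), and its arms overlapped.

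THP6 shared the leading segment TRBV3-1 with CCRF-CEM, and there its level did not differ beyond the spread. TRBV3-1 had 110 and 72.8 CPM in THP6 knockdown libraries, against 97.5, 99.4 and 89.8 CPM in control libraries. The control libraries lay between the knockdown libraries, and the log2 fold change was -0.07 (SE 0.132, adjusted p 0.867 by edgeR). Without knockdown replicate 1 the log2 fold change was -0.39 with an adjusted p of 0.00426, and without knockdown replicate 2 it was 0.20 with an adjusted p of 0.561. No segment was called in THP6, where 1 had an unadjusted p under 0.05 and 7.4% of all genes were called. DESeq2 called 0 and limma-voom 2 there. No share of all genes is given for the unadjusted count or for these methods, so these counts are not read further.

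The 2 lines that use TRBV3-1 differed otherwise in their beta segments. TRBV4-2 averaged 3.08 CPM in knockdown and 1.95 CPM in control libraries of CCRF-CEM, but 0.0696 CPM in knockdown and 0.0453 CPM in control libraries of THP6. TRBV2 had 12 to 43 counts in each CCRF-CEM library and 0 in every THP6 library. Over the 21138 genes tested, the mean log2 profiles of the control libraries of these 2 lines had a Pearson r of 0.940. It was the highest of the 21 pairs of lines, followed by 0.914 for CCRF-CEM and MOLT4. Each r is across genes, which are not independent replicates, and lines differ in depth and replicate number.

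The response of TRBV3-1 differed between CCRF-CEM and THP6 by 0.68 on the log2 scale (SE 0.177, adjusted p 0.0423 by edgeR's test of the interaction). Of 12 such comparisons of a segment held at 1 CPM by both lines, this 1 passed, beside 5.44% of all genes called for that pair of lines, and no adjustment was made over the 12. TRGV3 gave 10 of the 12 and TRBV7-2 in SUP-T1 and MOLT4 the other, with differences from -0.60 to 0.62 and adjusted p of 0.172 to 1. The TRBV3-1 difference lost its call in 8 of the 11 fits that left out 1 library of either line, ranging from 0.42 to 1.01.

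H9 and MyLa kept their beta leaders without a call. TRBV13 (ENSG00000276405) had 65.4, 65.3 and 66.8 CPM in H9 knockdown libraries, against 84.4 and 82.5 CPM in control libraries. The arms did not overlap, yet the adjusted p was 0.254 by edgeR (log2 fold change -0.34, SE 0.123). TRBV6-5 (ENSG00000211721) had 83.1, 78.3 and 90.5 CPM in MyLa knockdown libraries, against 75.0, 66.9 and 76.5 CPM in control libraries. Here too each knockdown library stood above each control library, with an adjusted p of 0.644 by edgeR (log2 fold change 0.21, SE 0.131).

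No segment was called in H9, where 1.82% of all genes were called, or in MyLa, where 1.88% were. At an unadjusted p under 0.05 there were 6 segments in H9 and 0 in MyLa. DESeq2 called 0 segments in both lines, and limma-voom called 4 in H9 and 0 in MyLa. Shares of all genes at that unadjusted threshold or by those methods are not given, so these counts are not read as many or few. Mac1 had 0 called and 0 at an unadjusted p under 0.05, and DESeq2 and limma-voom called 0 as well. No segment averaged 1 CPM in either arm of Mac1, so these 0 calls are not read against the 7.89% of all genes called there.

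H9 held 2 alpha segments at similar levels. TRAV20 (ENSG00000211800) had 19.7, 18.3 and 20.9 CPM in knockdown libraries, against 19.4 and 17.5 CPM in control libraries, and the arms overlapped (adjusted p 1 by edgeR). TRAV8-6 (ENSG00000211795) had 28.1, 26.4 and 27.5 CPM in knockdown libraries, against 19.1 and 16.9 CPM in control libraries. The knockdown libraries were all above the control libraries, with a log2 fold change of 0.60 (SE 0.184) and an adjusted p of 0.185 by edgeR. It was called by limma-voom (adjusted p 1.91e-05) and by edgeR fitted to H9 alone (0.0246).

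Which of the H9 alpha segments leads depends on the length correction and on the arm. Per kilobase of exon TRAV20 led in 3 of 5 libraries, with 48.4 CPM per kilobase in knockdown and 45.5 in control libraries, against 48.8 and 32.1 for TRAV8-6 in the same arms. By raw counts TRAV8-6, whose annotated transcript is longer, came first on average over both arms. Without the length correction it stood above TRAV20 in each knockdown library (means 27.3 against 19.6 CPM). In both control libraries TRAV20 was slightly ahead (means 18.5 against 18.0 CPM). TRAV20 took 47.6% ± 1.35 of alpha segment counts per kilobase in knockdown libraries (SD, n = 3), against 55.6% ± 0.29 in control libraries (n = 2). The shares did not overlap, and the exact permutation p was 0.2, the smallest that 3 libraries against 2 can give.

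MyLa had 1 alpha segment, TRAV4 (ENSG00000211778), with 5.51, 7.03 and 5.56 CPM in knockdown libraries, against 4.51, 5.07 and 4.80 CPM in control libraries. The arms did not overlap, and the adjusted p was 0.662 by edgeR (log2 fold change 0.33, SE 0.214). TRAV4 took 96.8% ± 1.3 of alpha segment counts per kilobase in knockdown libraries, against 94.3% ± 0.36 in control libraries (SD, n = 3 each). The exact permutation p of that share was 0.1, the smallest possible. CCRF-CEM, MOLT4, THP6 and Mac1 had no alpha segment at 1 CPM: their summed alpha segments averaged at most 1.54 CPM in knockdown libraries and 1.75 CPM in control libraries, both in CCRF-CEM.

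**Figure D3:**
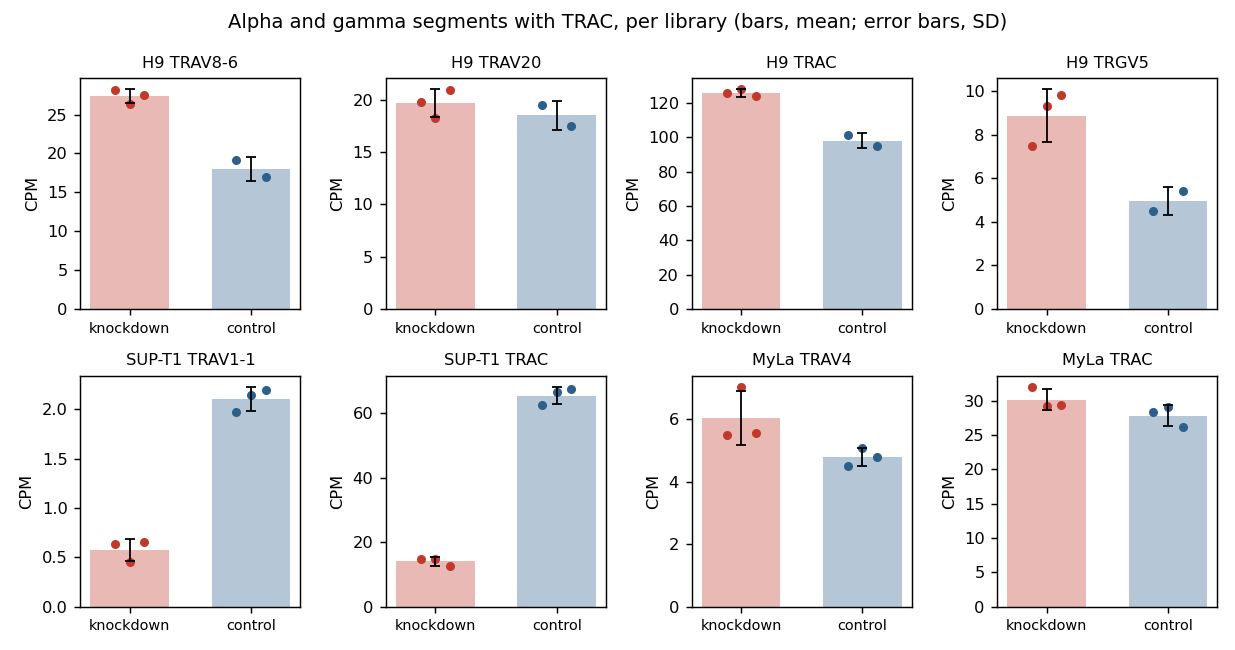
CPM of alpha and gamma segments and of the alpha constant gene TRAC, with knockdown left of control, 1 point per library, bars for the mean and error bars for the SD. SUP-T1 panels go by the labels; TRAV1-1 and TRAC are both lower there in the libraries labelled knockdown, and in H9 TRAV8-6, TRGV5 and TRAC are higher in knockdown libraries while the points of TRAV20 overlap.

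Gamma segments were low and shared between lines. TRGV3 (ENSG00000211699) reached 1 CPM in 5 lines and led the gamma chain of 4. Its level was highest in THP6, with 6.90 and 6.10 CPM in knockdown libraries, against 9.53, 6.72 and 6.62 CPM in control libraries. It averaged 2.20 CPM in knockdown and 2.55 CPM in control libraries of MyLa, and 2.95 and 3.47 CPM in the same arms of CCRF-CEM. In SUP-T1 it averaged 3.31 ± 0.51 CPM in the libraries labelled knockdown and 2.53 ± 0.098 CPM in those labelled control (SD, n = 3 each). No TRGV3 difference passed edgeR's test, with adjusted p from 0.244 in SUP-T1 to 1 in H9.

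H9 was led in the gamma chain by TRGV5 (ENSG00000211697), with 7.49, 9.29 and 9.79 CPM in knockdown libraries, against 4.48 and 5.40 CPM in control libraries. The arms did not overlap, and the log2 fold change was 0.84 (SE 0.288, adjusted p 0.211 by edgeR). TRGV5 took 69.4% ± 4.4 of gamma segment counts per kilobase in knockdown libraries (SD, n = 3), against 59.3% ± 4.6 in control libraries (n = 2). These shares did not overlap either, and the exact permutation p was 0.2, the smallest possible. TRGV3 in the same libraries had 2.57, 1.65 and 3.17 CPM after knockdown, against 2.67 and 2.41 CPM in controls, and overlapped. TRGV8, named after its values were seen, had 17, 17 and 12 counts in H9 knockdown libraries, against 1 and 5 counts in control libraries (adjusted p 0.116 by edgeR). In MyLa the runner-up TRGV4 averaged 0.905 ± 0.19 CPM in knockdown libraries and 1.18 ± 0.18 CPM in control libraries (SD, n = 3 each), with overlap. MOLT4 had no gamma segment above 4 counts in a library. The runner-up segments not described here averaged at most 0.426 CPM in either arm of their lines, and none was called.

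Mac1 had almost no variable segment in its RNA. Its beta segments together averaged 0.0766 CPM in knockdown libraries and 0.0348 CPM in control libraries, with at most 2 counts of any one in a library. The beta constant gene TRBC2 was nevertheless present, at 22.8 and 21.1 CPM in knockdown libraries, against 19.2 and 21.8 CPM in control libraries. TRAC had 8.37 and 9.63 CPM in knockdown libraries, against 5.55 and 4.84 CPM in control libraries, without overlap, and was called higher by edgeR (log2 fold change 0.79, SE 0.117, adjusted p 3.95e-05). Its most abundant alpha segment, TRAV13-1, had 0.535 and 0.843 CPM in knockdown libraries, against 0.740 and 0.591 CPM in control libraries, and overlapped. TRGV5 was the highest gamma segment, at 0.608 and 0.923 CPM in knockdown libraries, against 0.336 and 0.870 CPM in control libraries.

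The constant genes were counted apart from the segments, and their level includes any transcript that carries the constant exons, with or without a variable segment. In CCRF-CEM TRBC2 had 1406, 1417 and 1489 CPM in knockdown libraries, against 971, 1076 and 1011 CPM in control libraries. All knockdown libraries were higher, with a log2 fold change of 0.50 (SE 0.081, adjusted p 9.67e-05 by edgeR), beside 0.61 for TRBV3-1. In MOLT4 TRBC2 averaged 1743 ± 113 CPM in knockdown libraries and 2273 ± 132 CPM in control libraries (SD, n = 2 each). Its log2 fold change was -0.38 (SE 0.099, adjusted p 0.0057 by edgeR), beside -0.45 for TRBV20-1. In SUP-T1 TRBC2 averaged 1587 ± 95.6 CPM in the libraries labelled knockdown and 1855 ± 60.2 CPM in those labelled control (SD, n = 3 each), and just missed the threshold at an adjusted p of 0.0544.

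TRAC moved with the alpha segments in SUP-T1. It had 14.9, 14.7 and 12.5 CPM in the libraries labelled knockdown, against 62.4, 66.4 and 67.3 CPM in those labelled control. The log2 fold change was -2.22 (SE 0.0862, adjusted p 4.04e-17 by edgeR), beside -1.86 for TRAV1-1. In H9 TRAC averaged 126 ± 2.1 CPM in knockdown libraries (SD, n = 3) and 98.0 ± 4.2 CPM in control libraries (n = 2), a log2 fold change of 0.36 (SE 0.0894, adjusted p 0.0271). The gamma constant gene TRGC1 was also called higher in H9, at 28.0, 33.4 and 31.2 CPM in knockdown libraries, against 14.7 and 17.4 CPM in control libraries (log2 fold change 0.94, SE 0.206, adjusted p 0.0108).

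The lines differed in which beta constant gene they used. H9 carried mostly TRBC1, at 501 ± 28.9 CPM in knockdown libraries (SD, n = 3) and 608 ± 3.1 CPM in control libraries (n = 2), and it missed the threshold (adjusted p 0.0608 by edgeR). In the other 5 lines with a beta leader TRBC2 was far above TRBC1. MyLa TRBC1 had 6.31, 5.78 and 6.84 CPM in knockdown libraries, against 4, 3.42 and 4.33 CPM in control libraries, and was called higher (log2 fold change 0.69, SE 0.0973, adjusted p 7.65e-05 by edgeR). MOLT4 had TRAC at 1.23 and 1.08 CPM in knockdown libraries, against 0.288 and 0.331 CPM in control libraries, also called higher (adjusted p 2.33e-06).

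**Figure D4:**
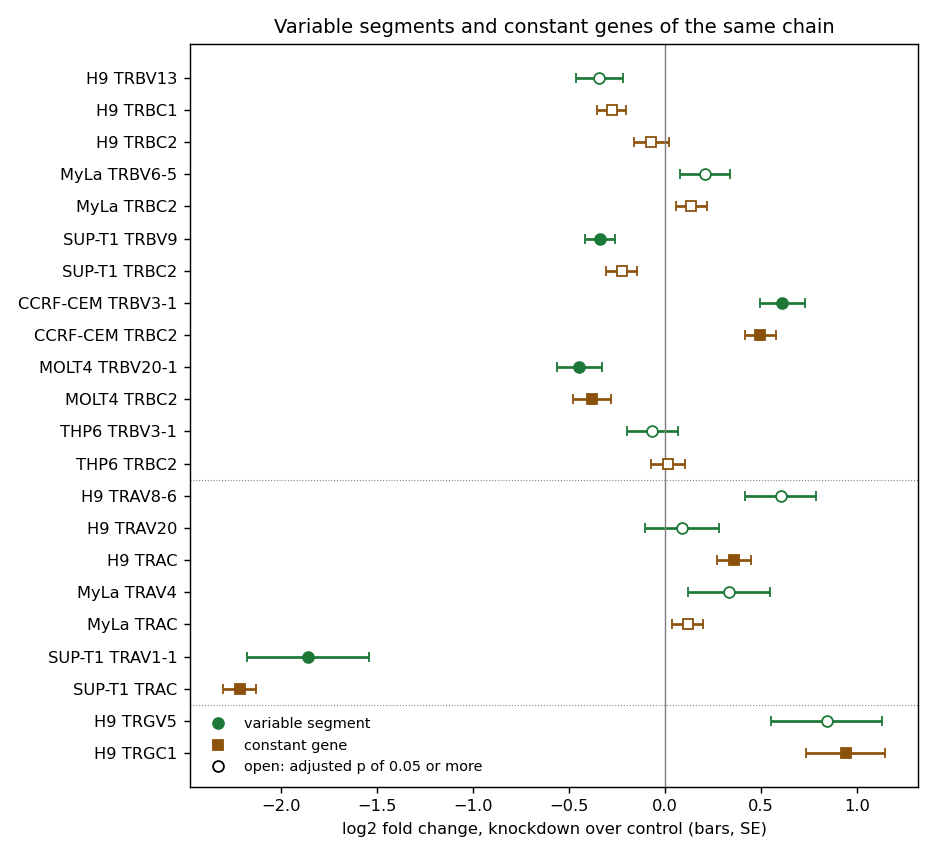
Log2 fold change, knockdown over control, of the leading beta and alpha segments, TRAV8-6 and TRGV5 (circles) and the constant genes of the same chain (squares) from edgeR, with bars of 1 SE and open symbols at an adjusted p of 0.05 or more; SUP-T1 goes by its labels. Plotted segments and constant genes of a chain lie on the same side of 0 except in THP6, where both are within 1 SE of 0. TRGV3 was not plotted. In MyLa its log2 difference of mean CPM was -0.21, against 0.89 for TRGC1 and TRGC2 summed.

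Set against the constant genes of its chain within each library, no leader was separated between the arms beyond what these designs can test. The log2 ratio of leader to constant genes, knockdown minus control, was 0.12 for TRBV3-1 in CCRF-CEM (exact permutation p 0.4), -0.06 for TRBV20-1 in MOLT4 (exact p 0.667) and -0.11 for TRBV9 in SUP-T1 (exact p 0.3). It was -0.11 for TRBV13 and -0.27 for TRAV20 in H9, both without overlap between the arms and at the smallest exact p possible, 0.2. For TRAV1-1 in SUP-T1 it was 0.37 (exact p 0.4). The ratio of TRGV3 to TRGC1 and TRGC2 in MyLa was the most distant from 0, at -1.07 (exact p 0.2), from 44 to 85 counts of TRGV3 a library and constant genes at 1.32 CPM in knockdown libraries and 0.713 CPM in control libraries. The other 7 of the 14 ratios lay between -0.09 and 0.21, with exact p of 0.3 to 1.

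Partner genes of the receptor did not all move with the segments. Of the 4 CD3 chains, which carry the receptor's signal, CD3D and CD3G were called higher in MOLT4, where the beta segments were lower: CD3D averaged 504 CPM in knockdown and 282 CPM in control libraries (log2 fold change 0.84, SE 0.0893, adjusted p 6.88e-08 by edgeR). In CCRF-CEM 0 of the 4 were called. In the libraries labelled knockdown of SUP-T1, CD3D and CD3E were called lower and CD247, the zeta chain, higher. CD247 was also called higher in Mac1 and THP6, and CD3E in MyLa, where it averaged 0.528 CPM in knockdown and 0.162 CPM in control libraries.

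Of the genes that build receptors, RAG1 encodes a subunit of the recombinase and PTCRA the pre-T alpha chain that pairs with a new beta chain. RAG1 averaged 84.7 CPM in knockdown and 54.8 CPM in control libraries of CCRF-CEM and was called higher (log2 fold change 0.62, SE 0.0972, adjusted p 6.83e-05 by edgeR), as was RAG2. In MOLT4 RAG1 averaged 136 CPM in knockdown and 221 CPM in control libraries and was called lower (log2 fold change -0.70, SE 0.116, adjusted p 5.81e-05). RAG1 was also called lower in THP6, where no segment was called. In the libraries labelled knockdown of SUP-T1 it was called higher, where TRBV9 was lower. PTCRA was called higher in MOLT4 and, at 147 CPM in the libraries labelled knockdown and 222 CPM in those labelled control, lower in SUP-T1. H9, MyLa and Mac1 had 0 counts of PTCRA and of DNTT, the enzyme that adds untemplated bases at joins. Also listed were 10 factors of receptor gene enhancers and promoters: GATA3, TCF7, LEF1, TCF3, TCF12, ETS1, RUNX1, RUNX3, BCL11B and MYB. With GATA3 counted, 1 was called higher and 6 lower in MOLT4, beside 19.2% of all genes called, and 1 higher and 2 lower in CCRF-CEM, beside 8.44%. In THP6 1 was higher and 3 lower, beside 7.4%, and in SUP-T1, by its labels, 3 were higher and 4 lower, beside 16.7%. H9 and Mac1 had 1 higher and 1 lower each, beside 1.82% and 7.89%, and MyLa 2 lower, beside 1.88%. The 1 lower in H9 and in Mac1 was GATA3 itself, the target of the hairpin, as was 1 of the 2 in MyLa.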

How the data were processed

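The authors' deposited values are expected counts per gene for 36 polyA RNA-seq libraries. Per the submitters' processing notes, the tools were cutadapt 2.3, STAR 2.7.8a and RSEM 1.3.3 with GRCh38, and per the labels' protocols libraries were made from poly(A)-selected RNA. No source at hand states the annotation release or the strand setting. The deposited expected counts were already whole, so rounding to whole numbers changed none. Deposited counts have no molecular identifiers, so floors cover counting error only.

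Libraries were grouped by line and arm from their titles. The source and cell line fields of SUP-T1 number its libraries as further lines, and the titles, which give 1 line, were used. All 140 segments were found in GENCODE 29, which gave coordinates, exon lengths and transcripts. Identity is over a pairwise alignment of annotated transcripts. Members and gene lists were chosen with earlier results of these data known.

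edgeR 4.0.16 (R 4.3.3) fitted 1 mean for each of 14 groups over all libraries, with TMM scaling and filterByExpr (21138 genes tested), and tested each line's contrast by quasi-likelihood F tests with Benjamini-Hochberg adjustment at 0.05. The SE of a log2 fold change is its size over the square root of F. The procedure was tested on simulated data. Alternatives were DESeq2 1.42.0, its size factors, limma-voom (limma 3.58.1), other filters, each line alone, a replicate block, a log2 fold change of at least 1, and each library left out. Leader shares use counts per kilobase. Ratios to constant genes use a pseudocount of 0.5. Both were tested by exact two-sided permutation. Replicate pairs within groups differed by 3.67 to 154 times the variance of pure counting, so no library was counted as a repeat of another.

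Named segments were the leader and runner-up of each chain in a line where the leader reached 1 CPM, and every called segment at 1 CPM. Outside that rule, TRBV2, TRBV30, TRBV7-3, TRGV8, TRBV20OR9-2 and the Mac1 segments TRAV13-1 and TRGV5 were named after their values were seen, and runner-ups at low levels are given as 1 range.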

Additional observations from a re-analysis of the deposited data

Results flagged for a closer look

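The response of TRBV3-1 to GATA3 knockdown passed a test of difference between the 2 lines that use it, but the call was lost in 8 of 11 fits that left out 1 library. The log2 fold change, knockdown over control, was 0.61 in CCRF-CEM and -0.07 in THP6, a difference of 0.68 (SE 0.177, adjusted p 0.0423 by edgeR's test of the interaction over all genes). All 3 CCRF-CEM knockdown libraries were above all 3 control libraries, while the 2 THP6 knockdown libraries, at 110 and 72.8 CPM, lay on either side of the 3 control libraries. Those 2 THP6 knockdown libraries differed more from each other over all genes than any other replicate pair, at 154 times the variance of pure counting. The difference was 1.01 without THP6 knockdown replicate 1 (adjusted p 1.04e-05) and 0.42 without THP6 knockdown replicate 2 (adjusted p 0.0853). It was 0.66 without CCRF-CEM control replicate 2, which also stood apart from its group (adjusted p 0.0839). TRBC2 had log2 fold changes of 0.50 in CCRF-CEM and 0.01 in THP6, and the difference of these was not tested.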

How the results depend on the processing

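The leading beta segment of each line was the same with raw counts and without pseudogenes and orphons. So were the other leaders except in the alpha chain of H9, where raw counts averaged over both arms put TRAV8-6 first. Shares of the leaders and their ratios to constant genes moved by less than the spread between libraries under every alternative run.

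Counts of called segments moved as follows. With limma-voom there were 4 in each of H9 and MOLT4 and 2 in each of THP6 and CCRF-CEM, and with each line fitted alone there were 2 in H9 and 2 in CCRF-CEM. A minimum log2 fold change of 1 left 1 in SUP-T1, 0 in CCRF-CEM and 0 in MOLT4. DESeq2 gave 1 in SUP-T1, since TRAV1-1 has no adjusted p there. Without the filter on low counts MOLT4 had 1. With 1 library left out the counts were 0 to 2 in MOLT4 and 0 to 1 in THP6. Shares of all genes called under these alternatives are not given, so the counts are not read as many or few.

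Replicate numbers gave little sign of pairing: correlations of same-numbered deviations ran from -0.109 to 0.201, with 3 of 17 over 0.1. In Mac1 and MOLT4, with 2 libraries in each arm, both correlations are the same value by construction. All were positive in H9, MyLa, MOLT4 and THP6, of mixed sign in SUP-T1 and CCRF-CEM, and negative in Mac1. With a replicate block MOLT4 had 1 call in place of 2, as TRBV7-2 reached an adjusted p of 0.0569, and no other line's count of calls moved. Crossing the Mac1 numbers, an alternative chosen after seeing the data, gave 0 calls.

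Among log2 fold changes, limma-voom called TRBV13 in H9 (-0.34, adjusted p 0.00116) and TRGV5 in H9 (0.84, adjusted p 0.00136), and the fit of H9 alone called TRGV5 (0.84, adjusted p 0.0498). Limma-voom and fits of each line alone also called TRAV8-6 in H9, TRBV10-3 in MOLT4 and TRBV4-2 in CCRF-CEM (adjusted p 0.0471 by limma-voom and 0.0338 alone), and limma-voom called TRBV7-2 in SUP-T1. Leaving out 1 library gave -0.48 to -0.42 for TRBV20-1 in MOLT4, never called. TRBV3-1 in THP6 ranged from -0.39, called without knockdown replicate 1, to 0.20 without knockdown replicate 2. The difference between CCRF-CEM and THP6, left-out libraries chosen after seeing the data, ranged from 0.42 to 1.01 with adjusted p from 1.04e-05 to 0.0853. In H9, TRAV20 turned to -0.0012 without control replicate 2, and TRGV3, from -0.28 to 0.15 over its left-out libraries, turned to 0.15 without knockdown replicate 2 and to 0.012 without control replicate 1. The cause of these changes was not tested. TRBV9 and TRAV1-1 in SUP-T1 and TRBV3-1 in CCRF-CEM stayed called in every fit that gave them an adjusted p. The calls of TRAV1-1 rest on 13 to 79 counts a library.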
